A study of Mus musculus with 8 samples.

Results

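The genes described here are 42 genes of the contractile apparatus and the energy supply of skeletal muscle, measured in tumors of mouse neuroblastoma cells. They were chosen by name, as a list of thick filament, thin filament, Z disc, calcium handling and energy genes, and make up 42 of the 35419 genes with a symbol to which reads could be assigned. Total RNA was sequenced from 8 tumors, 4 from mice given vehicle (physiological solution) and 4 from mice given the β3-adrenergic receptor antagonist SR59230A by intraperitoneal injection, 10 mg/kg 2 times a day. All mice were female A/J mice, 4 weeks old at purchase, in which 1000000 Neuro-2a (N2A) cells, a line derived from a spontaneous neuroblastoma of a strain A mouse, had been placed under the skin of the flank, and treatment started when a tumor could be felt and lasted 8 days. The libraries were made from homogenized bulk tumor tissue with its host cells included. The labels do not say more on how the tissue was taken, or whether a library holds a whole tumor or a part of it. Tumors are called by group and number as in the labels, vehicle 0 to 3 and SR59230A 1 to 4 (SR1 to SR4 below).

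A sarcomere is built from thick filaments of myosin, which pull on thin filaments of actin, troponin, tropomyosin and nebulin that are anchored at the Z disc, while titin spans the thick filament and the Z disc. Calcium released from the sarcoplasmic reticulum through the ryanodine receptor starts contraction by binding troponin C, and the SERCA pump takes it back. Fast and slow fibers carry different genes for most of these proteins, and embryonic and neonatal myosins precede the adult forms during development. Neuroblastoma is a tumor of the sympathetic nervous system lineage, and most of these genes are not known as part of its program.

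Most of the 42 genes were at or near 0 in the vehicle tumors and high in tumors SR1 and SR2 of the SR59230A group. Of the 42, 30 were below 1 TPM (transcripts per 1000000, a unit that corrects for transcript length and is used here wherever genes are compared with each other) in every vehicle tumor. In SR1, 40 of 42 were at 1 TPM or more and in SR2 28 were, against 10 in SR3, 10 in SR4 and 7 to 10 in the vehicle tumors. SR1 was the highest of the 8 tumors for 40 of the 42 genes, and for 28 of these SR2 was the next. Among the 21 genes with enough reads to be tested, SR1 was the highest for 19, and it was the highest for 13.1% of all 15193 genes tested. The 7 genes at 1 TPM or more in all 8 tumors were Myh3, Mylpf, Tnnc1, Tnni1, Actn2, Des and Eno3, and 2 of them, Myh3 and Tnni1, did not follow SR1 and SR2 at all. In bulk tissue, fewer cells of a type and less RNA per cell cannot be told apart.

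**Figure D1:**
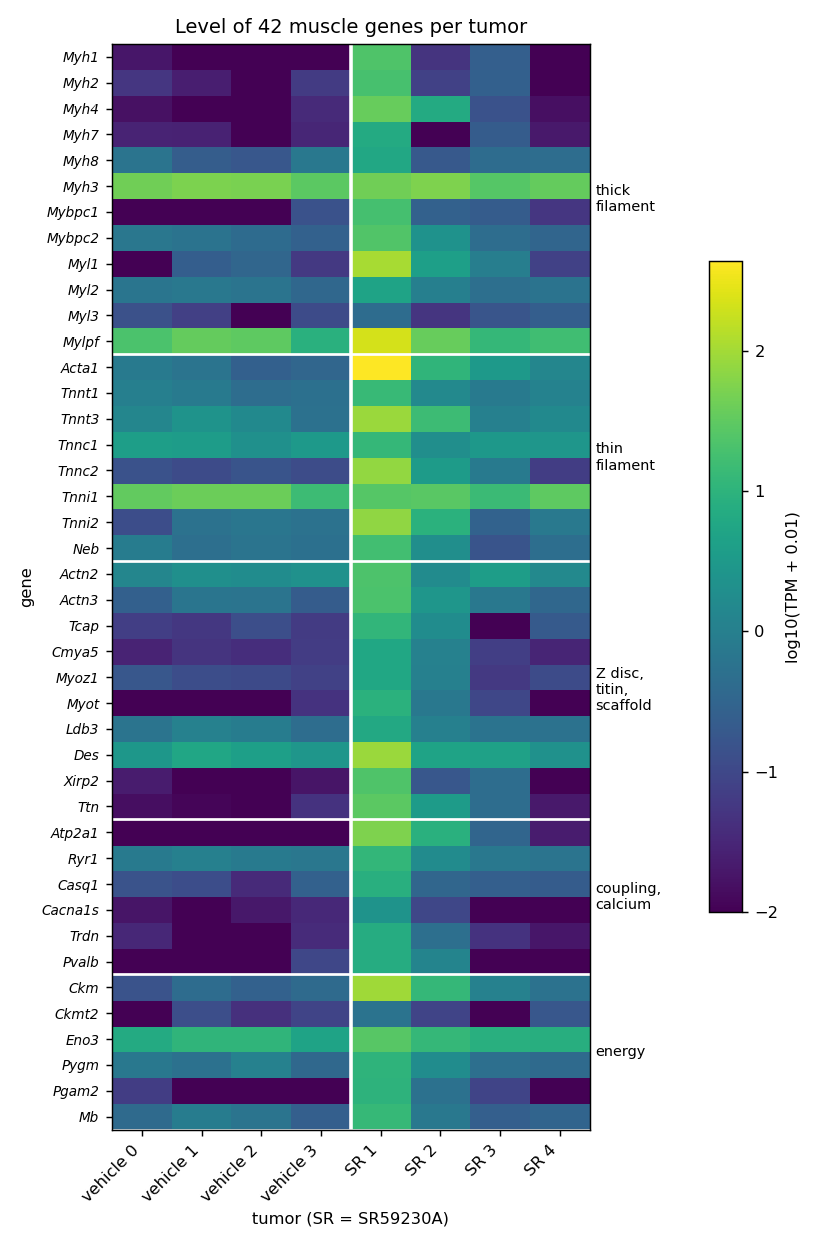
Level of the 42 genes (rows, grouped by role) in the 8 tumors (columns), as log10(TPM + 0.01) on the color scale. The column of SR1 is bright in every group of genes and that of SR2 in most, while Myh3 and Tnni1 are bright in all 8 tumors.

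Promoter sequence was available from RefSeq for 34 of the 42 genes, in 41 windows. The 250 bases before the start site are shown for genes that stood for the different patterns, first Myh4, Ckm and Acta1, which were high in SR1 and SR2, then Mylpf at the start used by its muscle form, and last Myh3 and Tnni1, which had reads in every tumor. Capitals mark, on either strand, the E-box letters CAGCTG of the kind that MyoD family factors bind, the letters TATAAA, the MEF2 consensus and the CArG box, the site of serum response factor. Matches of different motifs could overlap. Coordinates are of GRCm38.p6 and each sequence reads 5′ to 3′ on the strand of the gene.
Myh4, chr11:67237562-67237811, plus strand: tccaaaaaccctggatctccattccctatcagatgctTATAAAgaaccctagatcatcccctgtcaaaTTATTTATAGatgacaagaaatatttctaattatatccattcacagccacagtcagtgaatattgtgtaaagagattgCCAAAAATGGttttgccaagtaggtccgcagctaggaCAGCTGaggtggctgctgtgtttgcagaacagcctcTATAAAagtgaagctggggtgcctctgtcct
Ckm, chr7:19410844-19411093, plus strand: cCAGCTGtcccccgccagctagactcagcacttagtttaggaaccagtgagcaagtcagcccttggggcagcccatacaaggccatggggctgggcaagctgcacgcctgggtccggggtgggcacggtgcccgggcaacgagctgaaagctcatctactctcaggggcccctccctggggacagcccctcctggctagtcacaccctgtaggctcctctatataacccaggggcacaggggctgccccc
Acta1, chr8:123894776-123895025, minus strand: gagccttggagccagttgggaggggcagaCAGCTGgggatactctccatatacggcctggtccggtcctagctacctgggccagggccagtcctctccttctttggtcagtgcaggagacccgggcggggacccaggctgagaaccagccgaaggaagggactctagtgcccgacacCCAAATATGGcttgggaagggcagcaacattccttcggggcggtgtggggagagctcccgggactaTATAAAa
Mylpf, chr7:127211358-127211607, plus strand: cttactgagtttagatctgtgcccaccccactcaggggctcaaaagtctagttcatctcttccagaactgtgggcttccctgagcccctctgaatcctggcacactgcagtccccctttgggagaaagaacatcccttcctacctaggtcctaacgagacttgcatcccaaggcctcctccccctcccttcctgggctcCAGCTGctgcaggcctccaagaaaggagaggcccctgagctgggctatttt
Myh3, chr11:67078050-67078299, plus strand: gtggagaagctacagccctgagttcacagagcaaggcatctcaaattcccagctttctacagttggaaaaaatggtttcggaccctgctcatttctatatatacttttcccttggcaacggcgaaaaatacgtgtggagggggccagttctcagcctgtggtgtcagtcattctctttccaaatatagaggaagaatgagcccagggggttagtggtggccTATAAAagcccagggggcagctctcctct
Tnni1, chr1:135799171-135799420, plus strand: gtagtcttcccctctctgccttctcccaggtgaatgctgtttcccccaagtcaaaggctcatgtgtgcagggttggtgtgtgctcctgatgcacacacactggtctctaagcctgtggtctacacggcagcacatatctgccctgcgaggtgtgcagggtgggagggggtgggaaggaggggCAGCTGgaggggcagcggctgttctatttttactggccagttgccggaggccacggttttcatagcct

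CAGCTG was found in 18 of the 41 windows of these genes (43.9%) and in 13% of all 32851 windows of the same length. The MEF2 consensus was found in 7 of 41 (17.1%) against 2.92% of all windows, the CArG box in 5 (12.2%) against 1.47%, and TATAAA in 8 (19.5%) against 12.4%. The Myh4 window held a match to each of the 4 motifs, Acta1 held a CArG box and both letter motifs, and Ckm, Mylpf and Tnni1 held CAGCTG only. Myh3 held TATAAA and no CAGCTG. Matches are descriptions of the letters in these windows and do not show that a factor was bound.

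The thick filament genes showed the contrast between developmental and adult myosin most clearly. Of the 12 thick filament genes, 10 were below 1 TPM in every vehicle tumor, and Myh3 was the most abundant of the 6 myosin heavy chain genes of the list in all 8 tumors. Myh3, the embryonic myosin heavy chain, was at 42.4, 52.4, 51 and 29.4 TPM in vehicle tumors 0 to 3 and at 42.8, 55.2, 25.7 and 35.4 TPM in SR1 to SR4. In TPM the groups overlapped, SR1 lay inside the range of the vehicle tumors, and the lowest tumor was SR3. The log2 fold change of Myh3, SR59230A over vehicle, was -0.21 (standard error 0.15, edgeR adjusted p = 0.996). The difference in mean log2(CPM + 1), where CPM is reads per 1000000 scaled by TMM factors, was -0.22 (exact two-sided permutation test, p = 0.257). In CPM the groups also overlapped, but SR1 (191) lay below all vehicle tumors (213 to 253). Myh3 held 97.4% to 99.7% of the TPM of the 6 myosin heavy chain genes in the vehicle tumors, 95.3% in SR3 and 98.7% in SR4, but 88.7% in SR2 and 31.8% in SR1.

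Myh4, the myosin of the fastest (IIB) fibers, was at 0.00616, 0, 0 and 0.0264 TPM in vehicle tumors 0 to 3, and at 36.8, 6.72, 0.137 and 0.00531 TPM in SR1 to SR4. SR1 and SR2 stood above all other tumors, and SR4 lay within the vehicle range. Myh1, the IIX myosin, was at 23 TPM in SR1 from 3472 reads, at 0.0395 in SR2, at 0.248 in SR3 and at 0 in SR4, and no vehicle tumor exceeded 0.0092. Myh2, the IIA myosin, was at 19 TPM in SR1, 0.0692 in SR2, 0.259 in SR3 and 0 in SR4, with 0 to 0.054 in the vehicle tumors. For Myh1 and Myh2, SR3 and not SR2 was the second highest tumor. Myh7, the myosin of slow fibers, was at 6.86 TPM in SR1, 0 in SR2, 0.218 in SR3 and 0.0109 in SR4, and at 0 to 0.0215 TPM in the vehicle tumors. Myh8, the perinatal myosin, was at 0.586, 0.224, 0.171 and 0.696 TPM in vehicle tumors 0 to 3 and at 6.05, 0.188, 0.418 and 0.451 in SR1 to SR4, so that SR1 alone stood apart. The myosin heavy chain genes other than Myh7 lie side by side on chromosome 11 and have near-identical stretches, so reads could be split between them and their single values are less certain than their sum.

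The adult myosins differed in make-up between the tumors that had them. In SR1, the 4 adult genes together had 13426 reads, of which Myh4 took 44.8% (95% Wilson interval 44% to 45.7%), Myh1 25.9% (25.1% to 26.6%), Myh2 23.4% (22.7% to 24.2%) and Myh7 5.88% (5.5% to 6.29%). In SR2, Myh4 took 1279 of 1288 reads, 99.3% (98.7% to 99.6%), and Myh7 had 0 of 1288, for which the interval reaches 0.297%. SR3 had 82 reads of these genes, with Myh2 at 31, Myh1 at 29, Myh4 at 16 and Myh7 at 6. The share of Myh4 in SR3, 19.5% (12.4% to 29.4%), was below that in SR1 and SR2 by more than the counting intervals. SR4 had 2 reads and the vehicle tumors 8, 6, 0 and 14, too few to give a make-up. All such intervals cover counting error only, and each share belongs to 1 tumor.

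**Figure D2:**
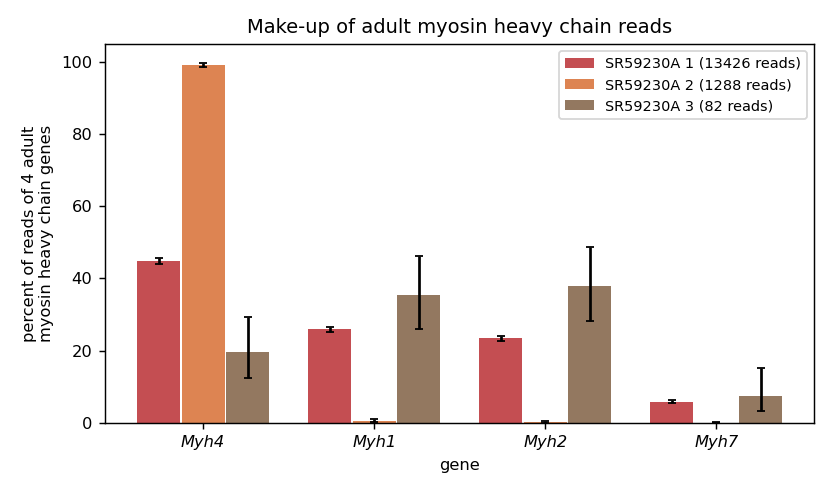
Share of the reads of 4 adult myosin heavy chain genes (percent) taken by each gene in SR1, SR2 and SR3, the tumors with more than 14 such reads. Error bars are 95% Wilson intervals (counting error only). Myh4 takes 99.3% in SR2 and 44.8% in SR1, and Myh1 and Myh2 lead in SR3.

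Of the light chains, which bind the neck of the myosin head, Mylpf, the fast regulatory chain, was at 21.5, 34, 31.2 and 8.9 TPM in vehicle tumors 0 to 3 and at 220 TPM in SR1. SR2, SR3 and SR4 were at 36.6, 12 and 16.6 TPM, so SR1 was 6.02 times the next tumor and the others overlapped. Its log2 fold change was 2.04 (standard error 0.88, edgeR adjusted p = 0.996), it was -0.01 without SR1, and the permutation p was 0.457 (exact, two-sided). Myl1, the fast essential chain, was at 107 TPM in SR1, 4.16 in SR2, 0.95 in SR3 and 0.0689 in SR4, with 0 to 0.335 in the vehicle tumors. SR1, SR2 and SR3 were all above the vehicle tumors and SR4 was not, and the permutation p was 0.114 (exact, two-sided). Myl2, a regulatory chain of slow fibers and heart, was at 4.94 TPM in SR1, 1 in SR2 and 0.338 to 0.711 in the other tumors. Myl3, the slow essential chain, did not pass 0.433 TPM in any tumor. The myosin-binding proteins Mybpc1 and Mybpc2, which stabilize the thick filament, were at 18.6 and 24.1 TPM in SR1 and at 0.27 and 2.33 TPM in SR2. The highest value of either in the other 6 tumors was 0.668 TPM.

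The transcript models behind Mylpf, Myh3 and Myh8 differed between SR1 and the other tumors, also where the gene was not higher in SR1. In Mylpf, the models Mylpf-205 and Mylpf-206 begin at chr7:127208890 and chr7:127208899 on the plus strand, and Mylpf-201 begins 2709 bases downstream of the latter, at chr7:127211608 (GRCm38), directly after the Mylpf window shown above. Mylpf-201 had 2089 reads in SR1, 38.7 in SR2, 0 in SR3, 6.8 in SR4 and 3.1 to 14.6 in the vehicle tumors. Mylpf-206 had 57.1 to 152 reads in the vehicle tumors, 313 in SR1 and 59.4 to 125 in SR2 to SR4. Mylpf-203, a short model with a retained intron, had 11.1 to 65.1 reads in the vehicle tumors and 191.7 in SR1, and per length it made up 37.3% to 59.3% of the Mylpf TPM in the vehicle tumors and 31% in SR1. By reads, the upstream models thus led in every tumor but SR1, and the downstream Mylpf-201 led in SR1. In Myh3, the gene total was not higher in SR1, but Myh3-202 had 3902 reads in SR1 and 0 in each of the other 7 tumors. Myh3-202 carries an additional noncoding exon of 55 bases at chr11:67079095-67079149 between the first exon and the exon that holds the start codon. Myh3-201 and Myh3-203, which lack this exon, had together all 3046 to 10723 Myh3 reads of those tumors. In Myh8, the full-length model Myh8-201 had 914 reads in SR1 and 0 to 2.1 in the others, while Myh8-204, a model with a retained intron, had 16.7 to 91.7 reads in all 8 tumors, SR1 included (49 reads). The assignment of reads among models that share most of their bases is an estimate by Salmon, and no file gives reads per exon.

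**Figure D3:**
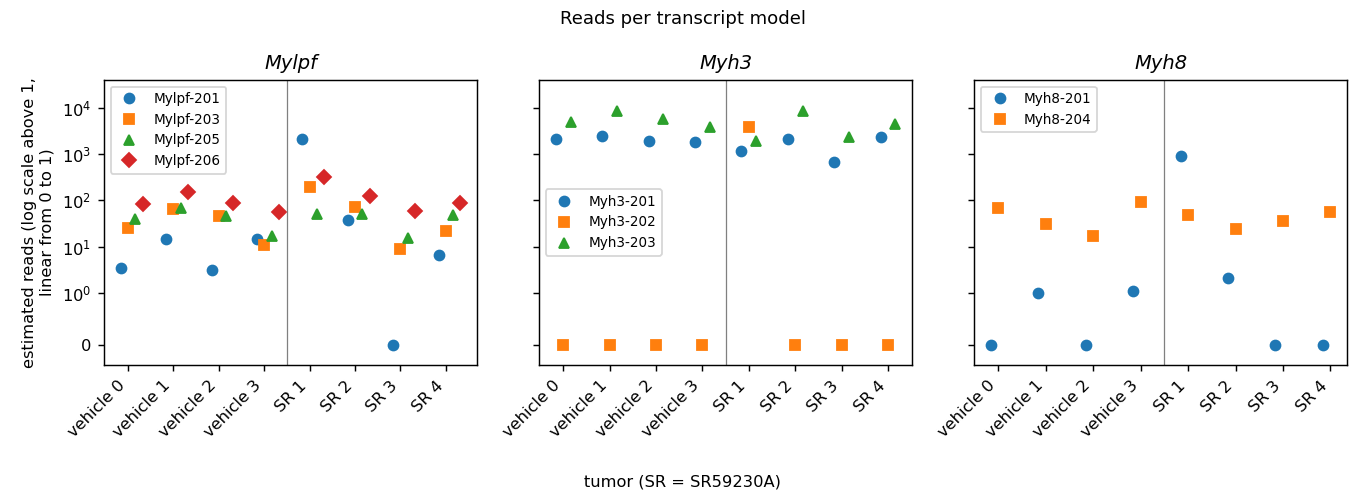
Estimated reads of the main transcript models of Mylpf, Myh3 and Myh8 in each tumor (log scale above 1, linear from 0 to 1). Mylpf-201, Myh3-202 and Myh8-201 reach 2089, 3902 and 914 reads in SR1, where the models present in the other tumors do not stand out to the same extent.

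Apart from Myh3 and Tnni1, the reads of these genes came more from protein-coding models where there were more of them. Protein-coding models held 99.3% of the reads in SR1 (95% Wilson interval 99.2% to 99.3%), 98.3% in SR2, 94.7% in SR3, 88.5% in SR4 and 87.4% to 92.8% in the vehicle tumors. Models with a retained intron held 0.26% in SR1, 1.09% in SR2, 4.57% in SR3, 10.8% in SR4 and 6.43% to 12.3% in the vehicle tumors. The libraries were made from total RNA, which contains unspliced transcripts.

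Among the thin filament genes, 7 of 8 were highest in SR1, and Tnni1 was the exception. Acta1, skeletal muscle α-actin and the member with the highest mean level, was at 0.771, 0.588, 0.252 and 0.324 TPM in vehicle tumors 0 to 3 and at 433, 10.7, 3.21 and 1.31 TPM in SR1 to SR4. All 4 SR59230A tumors were above all 4 vehicle tumors. In CPM the SR59230A mean was 93 ± 177 and the vehicle mean 0.472 ± 0.267 (SD, n = 4 each), and the log2 fold change in edgeR was 7.66 (standard error 1.96, adjusted p = 0.996), while the exact two-sided permutation test gave p = 0.0286, the smallest that 4 against 4 allow. It is 1 of 6 such p-values computed here, for the 6 members with the highest mean TPM, and none was adjusted for their number. Without SR1 the log2 fold change was 3.23, and without SR1 and SR2 it was 2.39.

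Tnni1, the inhibitory troponin of slow fibers, was at 33.6, 40.1, 39.2 and 15.2 TPM in vehicle tumors 0 to 3 and at 26, 27.8, 14.3 and 30.6 TPM in SR1 to SR4. The groups overlapped and SR1 and SR2 lay in the middle of the range (log2 fold change -0.36, standard error 0.26, edgeR adjusted p = 0.996). Its fast counterpart Tnni2 was at 73.5 TPM in SR1, 9.11 in SR2, 0.272 in SR3 and 0.755 in SR4, against 0.116 to 0.641 in the vehicle tumors. Tnnt3, which ties fast troponin to tropomyosin, was at 87 TPM in SR1, 15.3 in SR2, 1.02 in SR3 and 1.58 in SR4, with 1.31, 2.39, 1.61 and 0.521 in vehicle tumors 0 to 3. In TPM, SR3 and SR4 lay within the vehicle range of Tnnt3, while in CPM SR4 (1.75) was above the vehicle tumors (0.497 to 1.27). The log2 fold change of Tnnt3, 4.06 with a standard error of 1.21 (edgeR adjusted p = 0.996), became 0.32 without SR1 and SR2. Tnnt1, its slow counterpart, was at 13.3 TPM in SR1, 1.53 in SR2, 0.788 in SR3 and 1.12 in SR4, with 0.44 to 1.01 in the vehicle tumors. Tnnc2, the fast calcium-binding troponin, was at 76.5 TPM in SR1, 3.47 in SR2, 0.806 in SR3 and 0.0584 in SR4, and at 0.106 to 0.151 in the vehicle tumors. Tnnc1, the form of slow fibers and heart, was at 12.4 TPM in SR1, but at 1.93, 2.99 and 2.73 in SR2 to SR4 and at 2.13 to 4 in the vehicle tumors, so that SR2 was the lowest of the 8. Neb, which encodes the nebulin that runs along the thin filament, was at 17.4 TPM in SR1, 1.97 in SR2, 0.15 in SR3 and 0.461 in SR4, against 0.859, 0.493, 0.594 and 0.502 in vehicle tumors 0 to 3. SR3 and SR4 lay below all vehicle tumors, also in reads, with 5.2 and 16.1 against 74.4 to 108, and without SR1 and SR2 the log2 fold change was -2.68 (edgeR adjusted p = 0.386).

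The Z disc, titin and scaffold genes were all highest in SR1, 10 of 10. Ttn, titin, had most reads of the genes that set SR1 apart, 50034 in SR1, 5967 in SR2, 330 in SR3 and 4 in SR4, against 9, 4, 0 and 29 in vehicle tumors 0 to 3. Per length this was 29.2, 3.51, 0.441 and 0.0109 TPM in SR1 to SR4 and at most 0.0374 TPM in a vehicle tumor, so SR4 lay inside the vehicle range and the other 3 above it. The log2 fold change was 10.12 (standard error 2.42, edgeR adjusted p = 0.996), 7.13 without SR1 and 4.47 without SR1 and SR2. Des, the intermediate filament protein desmin, which smooth muscle also makes, was at 2.8, 5.54, 4.14 and 2.68 TPM in vehicle tumors 0 to 3 and at 88.4, 4.83, 4.5 and 2.18 TPM in SR1 to SR4. SR1 was 16 times the next tumor and the other 7 overlapped (log2 fold change 2.66, standard error 1.07, edgeR adjusted p = 0.996, against -0.05 without SR1; exact two-sided permutation p = 0.657). Actn2, α-actinin of the Z disc, was at 22.2 TPM in SR1, 1.74 in SR2, 3.78 in SR3 and 1.52 in SR4 and at 1.35 to 2.16 in the vehicle tumors. Cmya5, myospryn, was at 5.83 TPM in SR1, 1.08 in SR2, 0.0623 in SR3 and 0.0197 in SR4, with 0.0194 to 0.0566 in the vehicle tumors (log2 fold change 5.22, standard error 1.48, edgeR adjusted p = 0.996). Of the remaining 6, Actn3, Tcap, Myoz1 and Ldb3 were at 5.85 to 20.9 TPM in SR1 and at 1.04 to 2.77 TPM in SR2, and no other tumor exceeded 1.08 TPM. Myot and Xirp2 were at 9 and 23.3 TPM in SR1 and below 1 TPM in SR2, and for Xirp2, as for Myh1, Myh2, Myh7 and Actn2, SR3 (0.45 TPM) came second.

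Of the 6 genes of calcium handling, 1 had no read in any vehicle tumor. Atp2a1, the SERCA1 pump of fast fibers, had 0 reads in each of the 4 vehicle tumors and 4003, 820, 12 and 1 reads in SR1 to SR4, which were 54, 8.84, 0.32 and 0.0121 TPM. Every SR59230A tumor was above every vehicle tumor, though SR4 rests on 1 read, and against a floor of 3 reads over the vehicle group the SR59230A mean was at least 1432-fold higher, a value set by SR1. Ryr1, the calcium release channel, was at 0.782, 1.04, 0.801 and 0.689 TPM in vehicle tumors 0 to 3 and at 11.7, 1.7, 0.721 and 0.603 TPM in SR1 to SR4 (log2 fold change 2.06, standard error 0.82, edgeR adjusted p = 0.996). In TPM its SR3 and SR4 values lay in or below the vehicle range. In CPM SR3 (8.804) was just above the vehicle tumors (7.753 to 8.755) and SR4 (6.933) below them. The log2 fold change of Ryr1 was -0.07 without SR1 and SR2. Casq1, calsequestrin, Cacna1s, the voltage sensor, Trdn, triadin, and Pvalb, the calcium buffer parvalbumin, were at 2.42 to 8.51 TPM in SR1 and at 0.0891 to 1.23 TPM in SR2. None of these exceeded 0.268 TPM in another tumor.

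All 6 energy genes were highest in SR1. Ckm, muscle creatine kinase, was at 0.143, 0.419, 0.268 and 0.39 TPM in vehicle tumors 0 to 3 and at 95.7, 12.2, 1.06 and 0.544 TPM in SR1 to SR4. The groups did not overlap, although SR4 and the highest vehicle tumor rested on 14 and 9 reads (log2 fold change 6.21, standard error 1.57, edgeR adjusted p = 0.996, and 1.26 without SR1 and SR2). Eno3, the enolase form of muscle, was at 6.84, 10.8, 10.9 and 4.96 TPM in vehicle tumors 0 to 3 and at 26.5, 12, 8.3 and 7.96 TPM in SR1 to SR4, so that only SR1 stood clear. Pygm, the glycogen phosphorylase of muscle, named here after its values were seen, was at 10.2, 1.77, 0.475 and 0.386 TPM in SR1 to SR4 and at 0.357 to 1.07 in the vehicle tumors. In TPM its groups overlapped and in CPM they did not. Pgam2 and the oxygen carrier Mb were at 10.1 and 12.9 TPM in SR1 and at 0.537 and 0.709 TPM in SR2, and Ckmt2, the mitochondrial creatine kinase, did not pass 0.582 TPM in any tumor.

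Summed over the 42 genes, these transcripts took 0.0252% to 0.0318% of the reads in the vehicle tumors. They took 0.405% in SR1, 0.0559% in SR2, 0.021% in SR3 and 0.0269% in SR4, so by share of reads SR3 was below and SR4 within the vehicle range. In summed TPM SR3 (86.9) lay within the vehicle range of 73.6 to 160. Without Myh3 and Tnni1, chosen for omission after their values were seen, the shares were 0.00449% to 0.00522% in the vehicle tumors and 0.382%, 0.0305%, 0.00719% and 0.00401% in SR1 to SR4. By share of reads SR3 was then above all vehicle tumors and SR4 below them. In summed CPM SR4 (44.2) lay within the vehicle range of 42.3 to 51.5. In summed TPM both SR3 (46.9) and SR4 (41.4) lay within the vehicle range of 29.1 to 67.8. The ratio of the group means of summed CPM, SR59230A over vehicle, was 3.98 with all 42 genes and 20.1 without Myh3 and Tnni1 (9.33 from summed TPM without them), and without SR1 it was 1.19 for all 42 genes and 2.85 without Myh3 and Tnni1. Titin alone gave 50034 of the 133732 reads in SR1.

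SR1 and SR2 differed from each other in amount and in composition. Over the 28 genes at 1 TPM or more in both, SR1 was a median of 6.4 times as high as SR2, and over the 16 of them that were below 1 TPM in every vehicle tumor it was 7.71 times as high. Over 6727 other genes at 10 TPM or more in all tumors the median ratio was 0.902. The ratio was not uniform. On the log2 scale it ran over these 28 genes from -0.37 for Myh3 to 5.35 for Acta1, and 4 genes with SR2 levels under 1 TPM lay above this range, Myh1 (9.19), Myh2 (8.1), Xirp2 (7.06) and Mybpc1 (6.1). The rank correlation of the levels in the 2 tumors was 0.762 over the 41 genes above 0 in both, a description of genes of 1 kind in 2 libraries.

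**Figure D4:**
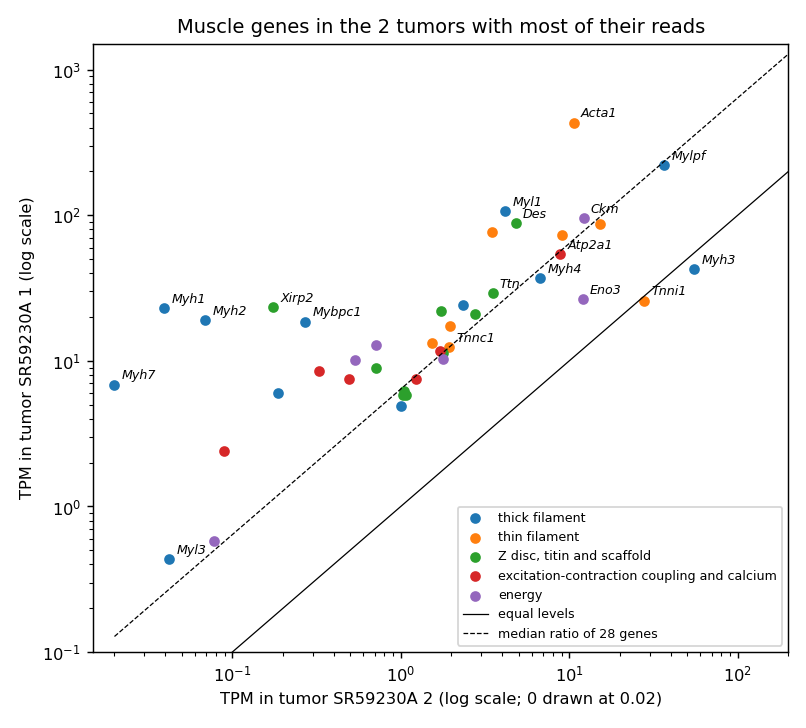
TPM of the 42 genes in SR1 (vertical) against SR2 (horizontal), both on log scales, colored by role. The solid line marks equal levels and the dashed line the median ratio of 6.4. Myh3 and Tnni1 lie under the line of equal levels, and Acta1, Xirp2, Mybpc1, Myh1, Myh2 and Myh7 lie far above the dashed line.

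Fast fiber genes took a larger share of the fast and slow transcripts in SR1 and SR2 than in any vehicle tumor. Of the 13 fast genes, 13 were at 1 TPM or more in SR1 and 11 in SR2, against 1 or 2 in each of the other tumors, and of the 6 slow genes 5 were in SR1, 4 in SR2 and 2 or 3 elsewhere. The fast share of summed TPM of the fast and slow genes was 92.2% in SR1, 73.9% in SR2, 47.7% in SR3 and 35.9% in SR4, and 38%, 46%, 45.3% and 36% in vehicle tumors 0 to 3. SR3 lay just above the vehicle tumors and SR4 just below them, while by reads SR3 was at 50% (95% Wilson interval 45.7% to 54.3%), SR4 at 29.4% and the vehicle tumors at 27.7% to 32.1%. Outside SR1 and SR2, Mylpf gave 69.8% to 89% of the fast and Tnni1 75.5% to 92.5% of the slow TPM, both lowest in SR3. Without those 2 genes, left out after their values were seen, it was 93.4% in SR1, 92.4% in SR2, 52.9% in SR3, 41% in SR4 and 32% to 54.8% in the vehicle tumors, and by reads 95.1%, 97.6%, 76.2% and 62.1% in SR1 to SR4 and 52.5% to 71.3% in the vehicle tumors. With troponins alone it was 82.1% in SR1, 47.1% in SR2, 10.4% in SR3, 6.5% in SR4 and 3.91% to 6.41% in the vehicle tumors.

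Whether SR59230A treatment changed these genes was tested with edgeR's quasi-likelihood test over all 15193 genes with enough reads, with a gene called where the adjusted p (Benjamini-Hochberg) was under 0.05 and the log2 fold change was at least 0.5 in either direction. Of the 42 genes 21 could be tested, and 4 of them (Ttn, Casq1, Cmya5 and Ckm) passed the filter on low counts, which asks for 4 tumors, only with the help of SR1 or SR2. None of the 21 was called, nor was any other gene (background 0%). At an unadjusted p under 0.05, 14 of the 21 were higher with SR59230A and 0 lower, where 2.22% of all genes tested were higher and 2.41% lower. That count depended on the test and on SR1 and SR2: it was 7 with DESeq2 (background 2.34%) and 4 with limma-trend (1.99%), and in edgeR 7 of 21 without SR1 (2.02%) and 3 of 22 without SR1 and SR2 (3.02%). Of the 21, 19 had a fold change above 0 and 2 (Myh3 and Tnni1) below, with a median log2 fold change of 2.66, where the median of all genes tested was -0.002 (49.6% above 0). DESeq2 called 17 genes, 10 higher (0.0658%) and 7 lower (0.0461%), and the 10 included Ttn, Ckm and Pygm. The groups did not overlap, with SR59230A higher, for 3 of the 21 (Acta1, Ckm and Pygm), where 1.33% of all genes tested did so, and Atp2a1 did so among the genes not tested. For none of the 21 were all SR59230A tumors lower (background 1.26%).

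These values rested on SR1 and SR2. Without SR1 the median log2 fold change of 21 tested genes was 0.57 with 7 of 21 below 0, and without SR1 and SR2 it was 0.07 with 10 of 22 below 0, while Acta1 (2.39), Ttn (4.47) and Ckm (1.26) kept their sign. In the tumors numbered 1 and 2 of each group, 35 of the genes could be tested, but 19 of these passed the filter only with SR1 or SR2 and 15 were under its limit in both vehicle tumors, so that they had to differ and nothing is read from their number. Of the 35, edgeR called 0 and DESeq2 17 as higher (background 0.531%). In the tumors not numbered 1 and 2, 20 could be tested and the median was 0.01, with 2 at an unadjusted p under 0.05 and higher (background 2.3%). The study describes its sequencing as done in duplicate, and nothing in the labels says how that relates to the numbered tumors or whether the tumors of a group came from separate experiments, so the p-values measure the spread between these samples only.

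**Figure D5:**
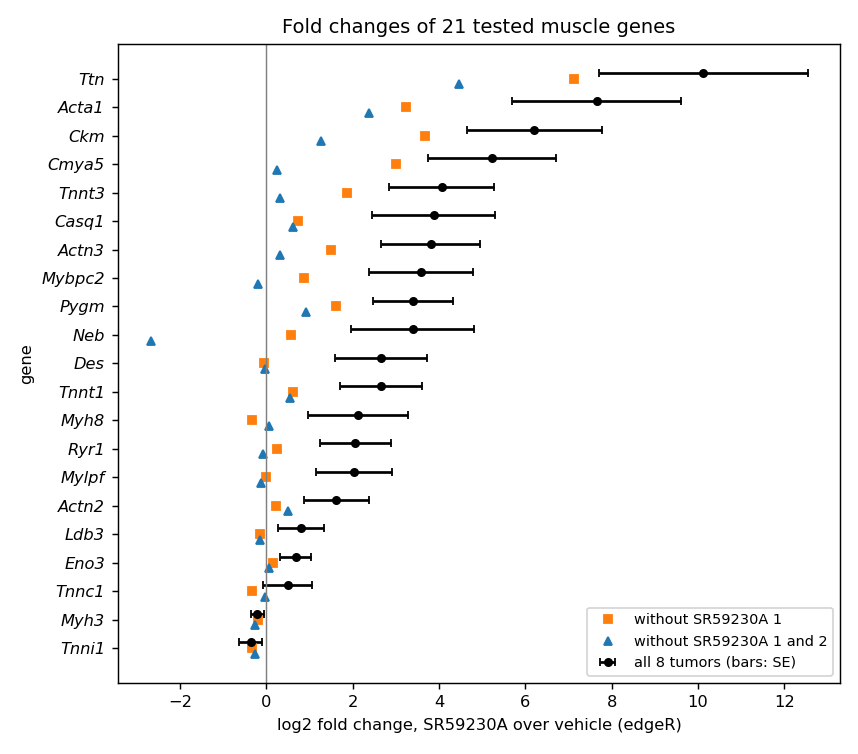
Log2 fold changes of the 21 tested genes, SR59230A over vehicle, from edgeR with all 8 tumors (black, bars are standard errors), without SR1 (orange squares) and without SR1 and SR2 (blue triangles). Without SR1 and SR2 the median is 0.07, with Ttn, Acta1 and Ckm still above 1, Neb at -2.68 and Myh3 at -0.27, farther from 0 than with all tumors.

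Further muscle genes outside the 42 were looked at in 5 lists. Of 28 other sarcomere and sarcoplasmic reticulum genes, 19 were tested and 0 called, and 14 were higher and 5 lower. At an unadjusted p under 0.05, 4 were higher and 1 lower, where 2.22% of all genes tested were higher and 2.41% lower. Their median log2 fold change was 0.32. Among them Myom2, which cross-links thick filaments, was at 6.86 TPM in SR1 and 0.471 to 1.18 TPM in the other tumors (log2 fold change 2.21), while Nebl, the nebulin relative of non-skeletal tissue, was at 5.1 to 7.79 TPM with vehicle and 3.68 to 5.76 with SR59230A (log2 fold change -0.47). Sln, the sarcolipin that regulates the calcium pump, and Smpx had no read in any vehicle tumor and were at 8.57 and 7.98 TPM in SR1. Of 16 other energy genes 12 were tested and 0 called, with a median of -0.02. By TPM, 8 of the 16 were highest in SR1 and 4 in SR2, where 13.1% of all genes tested were highest in SR1. Slc2a4, the insulin-responsive glucose transporter, was at 1.15 TPM in SR1, 0.401 to 0.493 in SR2 to SR4 and 0 to 0.202 in the vehicle tumors. The broadly expressed glycolytic gene Hk2 was at 20.3 to 32.1 TPM with vehicle and 13.9 to 29.4 with SR59230A. Of 9 measured genes of atrophy and turnover 5 were tested and 0 called, with a median of 2.59, and Trim63, the ubiquitin ligase MuRF1, was at 3.35 and 1.35 TPM in SR1 and SR2, 0.342 and 0.714 in SR3 and SR4 and 0.127 to 0.269 in the vehicle tumors. Csrp3, a Z disc protein, had no read in any vehicle tumor and was at 30.2 TPM in SR1.

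Of 10 genes of satellite cells and muscle formation, 7 were highest in SR1 and 1 in SR2 by TPM. Among all genes tested 13.1% were highest in SR1, but only 2 of these 10 had enough reads to be tested, so the gene sets are unlike. Myod1 and Myog, transcription factors of myoblasts, were at 1.4 and 3.03 TPM in SR1, at 0 and 0.091 in SR2, and at 0 to 0.34 in the others. Myf6, the factor of mature fibers, was at 4.99 TPM in SR1, 0.108 in SR2 and 0 to 0.0344 elsewhere. Pax7, the satellite cell factor, was at or under 0.139 TPM in all 8 tumors. Pax3, an early factor of muscle precursors, was highest in SR2 in TPM (1.22, against 1.11 in SR1 and 0.472 to 0.884 with vehicle). In CPM Pax3 was highest in vehicle 3 (2.62), with 2.31, 2.23, 2.26 and 1.51 in SR1 to SR4. Mymx, a fusion protein of myoblasts, was at 0.256 and 0.267 TPM in SR1 and SR2 and at 0.539 in vehicle 3. Only Pax3 and Mef2c could be tested in this list, and 0 were called. Of 9 neuromuscular junction genes 5 were tested and 0 called, with a median of 0.03. Chrnd, a subunit of the acetylcholine receptor, was at 0.495 TPM in SR1, 0 in SR2 and 0.0137 or less in the others, and Chrna1, the α subunit, was at 2.53 TPM in SR1 and 0.487 to 1.22 TPM elsewhere.

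The genes whose pattern over the 8 tumors was most like the mean log2(CPM + 1) of the 42 were Nrap (Pearson r 0.997), Scn4a (0.99), Ankrd23 (0.983), Slpi (0.983), Sptb (0.982), Tmod4 (0.981), Itm2a (0.978), Ankrd2 (0.977), Mypn (0.976) and Ankrd1 (0.974). These are descriptions over 8 tumors in which SR1 lies far from the rest, and Nrap, Scn4a, Tmod4, Ankrd2 and Mypn are known from muscle fibers.

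Markers of other cell types were summed by list, and single ones among them were highest in SR1. The 7 tendon markers summed to 40.5 CPM in SR1 and to 3.37 to 10.3 CPM in the other tumors. Of this, Thbs4 alone gave 33.7 CPM in SR1 and 0.784 to 6.67 in the others, and the other 6 summed to 6.81 CPM in SR1 and 1.6 to 3.65 elsewhere, with Tnmd at 3 reads in SR1 and Chad at 0 reads in all tumors. The 10 fibroblast and matrix markers summed to 1989, 1978, 1425 and 1886 CPM in SR1 to SR4 and to 1202 to 1931 CPM in the vehicle tumors. Of the 10, 5 were highest in SR1, where 13.1% of all genes tested were. Fn1, with most reads of them in SR1, was highest in SR4 (1080 CPM, against 754 in SR1). The sum of the 10 heart muscle markers was highest in SR4 (103 CPM). Of the 10, 5 were highest in SR1, where 13.1% of all genes tested were, but only 4 of the 10 were tested. Nppa had 0 reads in all tumors, and Myh6 was at 2.25 TPM in SR1 and at most 0.105 elsewhere. The 10 adipocyte markers were highest in SR3 (304 CPM) and lowest in SR1 and SR2 (24.3 and 21.7 CPM), against 48 to 101 CPM in the vehicle tumors, and the 8 keratinocyte markers did not exceed 1.06 CPM in any tumor. The 8 smooth muscle markers were at 115 to 155 CPM with vehicle and 124 to 163 with SR59230A, and 4 of the 8 were highest in SR1. Of 6 macrophage markers 4 were highest in SR1, though their sum was highest in SR3 (522.5 CPM, against 329.1 in SR1). Of 7 endothelial markers 1 was highest in SR1, and of 7 Schwann cell and 6 erythroid markers 0 were. All 12 neuroblastoma markers could be tested in these tumors. They summed to 3853 to 5299 CPM with vehicle and to 2720, 3307, 3616 and 4252 CPM in SR1 to SR4. Of the 12, 11 were lower, as were 7652 of all 15193 genes tested. At an unadjusted p under 0.05, 3 of them were lower, where 2.41% of all genes tested were (median log2 fold change -0.37, 0 called). The part of other cell types in the muscle gene values was not tested.

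Depth ran from 23484190 to 44045575 estimated reads per tumor, and SR1, with 33045522, was neither the deepest nor the shallowest. Noct was the gene with most reads in all 8 tumors (7.61% to 17%). Mitochondrially encoded genes took 1.31% to 7.5% and olfactory receptor genes 0.0951% to 0.362% of the reads, both with the highest values in SR3 and vehicle 3, and SR1 and SR2 stood out in neither. Their part in the results was not tested.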

How the data were processed

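Per the labels and the study's methods, total RNA of excised N2A tumors was made into stranded, ribosomal RNA depleted libraries. The authors quantified transcripts with Salmon 1.5.1 (version from the methods), and the deposited file of each tumor lists, for every transcript, an estimated count, a TPM value and an effective length. The methods name GRCm38 and the notes GRCm39. A second table from the authors holds a signal per gene, counts normalized by DESeq2, and lists 12 of the 42 genes. The labels cannot give 1 of its columns to a numbered vehicle tumor, so it was used as an unnumbered one.

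Here, identifiers of 115685 of 116747 transcripts were found in GENCODE vM21 (GRCm38), and 242 of 244 transcript models of the 42 genes had the same length there. Estimated counts were summed to 35419 gene symbols, and TPM likewise. Rows that matched no gene were left out of library sizes (0.407% and 0.44% of reads in vehicle tumors 0 and 1, for example). Counts were rounded and tested with edgeR 4.0.16 in R 4.3.3 (TMM, filterByExpr, glmQLFit and glmQLFTest, Benjamini-Hochberg over all genes tested). All CPM values are reads per 1000000 scaled by TMM. Summed levels and shares of members were given per tumor with exact binomial or Wilson 95% intervals and no test. Alternatives used DESeq2 1.42.0, limma 3.58.1, other scaling, filters, sample sets, transcript sets and pseudocounts. The fits were tested on simulated data first.

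The 42 members and all lists were chosen with earlier results of these data known. Values by tumor, in part as ranges, were given for myosin heavy chains, troponins, light chains, the 2 members of each role with the highest mean TPM, Ttn, Neb and Cmya5. From each other muscle list, the 2 genes with the smallest unadjusted p were named (Ankrd2, Mef2c, Pax3, Chrnb1 and Chrna1 in part by list only), and further genes of these lists (Sln, Smpx, Csrp3, Myod1, Myog, Myf6, Pax7 and Chrnd) were named after their values were seen. Genes with the highest Pearson r with the members' mean log2(CPM + 1) were the 10 highest. Promoter windows came from RefSeq (GRCm38.p6).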

Additional observations from a re-analysis of the deposited data

Results flagged for a closer look

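In groups of 4 tumors, a value was singled out where its gap to the nearest of the others, divided by the range of the group, was above 0.829. Independent, normally distributed values exceed this limit in about 1 of 20 groups. The values here include sums and values at 0, and the groups share tumors and genes. That rate therefore does not hold here, and the values singled out are not separate findings. For 26 named genes on the log2(CPM + 1) scale, and for summed levels and the fast share, 66 groups were compared and 12 values were singled out. In 11 of them the value was that of SR1, the highest of the SR59230A tumors. On the log2(CPM + 1) scale these were Myh7 at 4.49, Tnnt1 at 3.26, Mylpf at 6.19, Myl2 at 1.54 and Eno3 at 4.64. In summed CPM they were all 42 genes at 3640, thick filament genes at 809, thin filament genes at 605, Z disc, titin and scaffold genes at 1860, calcium handling genes at 253 and energy genes at 118. The summed CPM of all 42 genes in SR2, SR3 and SR4 was 518, 240 and 297. The other value was Myh1 in vehicle tumor 0, at 0.0779 where the other vehicle tumors were at 0, which is 1.5 reads. Acta1, Ckm and Ttn were not singled out on the log scale, since their values in SR2 and SR3 lay between those of SR1 and SR4.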

How the results depend on the processing

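edgeR called no gene and no member over all 8 tumors, and neither did edgeR with DESeq2's size factors, with library totals, with either other filter, with length offsets or with protein-coding models only, nor limma-trend. DESeq2 called 17 genes, 3 of them members. In the tumors numbered 1 and 2, DESeq2 (added after the data were seen) called 151 genes, 17 of them members, and edgeR 0. The 17 were all higher (background 0.531%). Of the 35 members tested there, 19 passed the filter only with SR1 or SR2, so nothing is read from the 17. In the tumors not numbered 1 and 2, edgeR called 5 genes. Leaving out each tumor gave 0 to 1 genes and 0 members called. Correlations of the deviations of same-numbered tumors were 0.01, 0.626 and 0.534 for numbers 1 to 3. SR2 correlated slightly better with vehicle 1 (0.631), and SR3 correlated best with vehicle 3. Whether the replicate numbers pair the tumors was not settled by these values. With the replicate number as a block over tumors 1 to 3, edgeR called 2 genes, 1 of them a member (Atp2a1, background 0.00653% higher). Atp2a1 had 0 reads in every vehicle tumor and could pass the filter only through SR59230A tumors, so nothing is read from its call. The median log2 fold change of the members was 2.92 with the block. Without the block it was 3.89, with 1 gene and 0 members called.

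The median log2 fold change of tested members, 2.66, was 1.06 with limma-trend, 4.10 without a filter (42 genes, also with Atp2a1 at its bound), 4.82 in the tumors numbered 1 and 2 (4.83 with DESeq2; 19 of the 35 tested there passed the filter only with SR1 or SR2), 0.008 in the other tumors, 0.068 without SR1 and SR2, 5.69 without vehicle 0, vehicle 3 and SR4, and 0.57 (without SR1) to 3.79 (without SR4) leaving out each tumor. The ratio of summed CPM, 3.98, was 14.6 without Myh3 and 20.1 without Myh3 and Tnni1 (2.85 when SR1 was also left out), and 1.19 (without SR1) to 5.03 (without SR3) leaving out each tumor. Members whose groups did not overlap were 4 of 42, 3 of them among the 21 tested, where 1.33% of all genes tested did so. They were 4 to 15 leaving out each tumor, 8 without SR3 and 15 without SR4, the lowest SR59230A tumor for 26 of the 42. Leaving out a tumor can only keep or raise such a count. The share over all genes was not computed there, so nothing is read from these counts. The permutation p of Acta1 was 0.0571 without any 1 tumor, the smallest that 3 against 4 allow.

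The fast share from reads in place of TPM was 27.7%, 31.2%, 28.9% and 32% in vehicle 0 to 3 and 93.9%, 83.4%, 50% and 29.4% in SR1 to SR4. With troponins only it was 3.91%, 6.41%, 5.44% and 5.92% in vehicle 0 to 3 and 82.1%, 47.1%, 10.4% and 6.5% in SR1 to SR4. Without Tnni1 and Mylpf it was 32% and 54.8% in vehicle 0 and 2 and 93.4%, 92.4%, 52.9% and 41% in SR1 to SR4. Without myosin heavy chains it was 72.4% in SR2.

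Single genes changed sign only where SR1, or SR1 and SR2, were left out. In the tumors not numbered 1 and 2 the log2 fold change was -0.7 for Myh8, -0.399 for Tnnc1, -2.89 for Neb, -0.14 for Cmya5, -0.032 for Des, -0.16 for Ryr1, -0.15 for Mef2c, -0.11 for Pax3 and -0.43 for Mybpc2. Without SR1 and SR2 it was -0.039 for Tnnc1, -0.13 for Mylpf, -2.68 for Neb, -0.019 for Des, -0.073 for Ryr1, -0.064 for Mef2c, -0.2 for Mybpc2 and -0.14 for Ldb3 (-0.15 without SR1 alone). Leaving out each tumor, the lowest value (without SR1) and the highest were -0.34 and 2.71 for Myh8, -0.33 and 0.80 for Tnnc1, -0.013 and 2.38 for Mylpf, -0.051 and 3.04 for Des and -0.11 and 1.04 for Mef2c. The causes were not tested.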
